A study of Saccharomyces cerevisiae with 48 samples.

Results

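The 56 genes named RPS0A to RPS31 encode the proteins of the small, 40S ribosomal subunit of the budding yeast Saccharomyces cerevisiae. They were chosen by name, and all 56 were among the 3301 genes of the count tables. They form 24 pairs of paralogues, called A and B copies, and 8 single-copy genes. The study grew BY4743, a diploid laboratory strain, in rich YPD medium at 30 °C and separated newborn cells by centrifugal elutriation. Fractions were left to grow until they reached a set volume, from 40 fl at birth to 75 fl at the end of the cycle, in steps of 5 fl. Each of the 8 sizes has 3 replicate pools, labelled A, B and C, and each pool gave 1 poly(A) mRNA library and 1 ribosome footprint library, 24 of each. All groups share strain, medium and temperature and differ in cell size. A replicate is a pool of many elutriated fractions of the same size, so no library is a single synchronous culture.

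The 40S subunit binds mRNA and initiator tRNA and decodes codons, while the large subunit joins amino acids. Its proteins sit on the 18S rRNA in a head, which faces the tRNAs from above, and in a body with a platform, where mRNA enters and leaves. Each protein is present once in each subunit, so cells must make all of them in matched amounts. In yeast the transcription factors Rap1, Fhl1, Ifh1 and Sfp1 drive these genes together, and nutrient signalling through TOR and protein kinase A sets their output. A genome duplication left most of them in pairs.

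Counted reads per library ran from 248840 to 5797532 for mRNA and from 26360 to 5659096 for footprints, and 6 footprint libraries held fewer than 150000. RPS genes took 8.60% to 16.2% of counted mRNA reads and 4.16% to 10.7% of counted footprints. Core histone and other cell cycle marker mRNAs followed size: 8 of 9 counted markers rose and none fell, with a median slope of 0.49 on the log2 scale per 5 fl. Levels are given as log2 counts per 1000000 reads after TMM scaling within an assay (log2 CPM, prior count 2). They are relative to the other counted mRNAs, so a change in total mRNA per cell is not seen. Copies with near-identical sequences can share reads, and the labels and headers do not state the rule for such reads, which makes values of single copies uncertain there.

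The footprint libraries labelled replicate A ran along size in the direction opposite to those labelled B and C. The median slope of the 56 RPS genes was -0.14 (log2 per 5 fl) in A, 0.12 in B and 0.15 in C. All 56 slopes were negative in A, while 54 were positive in B and 55 in C. The slope in A differed from that in B and C for 45 RPS genes (edgeR quasi-likelihood test of the difference, Benjamini-Hochberg adjusted p under 0.05), against 26.1% of all genes. It was lower in A for all 45, as it was for 364 of the 3301 genes tested, and it was higher in A for 0 RPS genes, against 15.1% of all genes. The 5 counted core histone genes, whose mRNA accumulates with DNA replication, had the same split in footprints, with medians of -0.56 in A, 0.50 in B and 0.56 in C. In mRNA the histone medians were 0.49, 0.43 and 0.58, and no gene of any kind was called different between A and the other letters (0.00% below and 0.00% above; 7 RPS genes at unadjusted p under 0.05).

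Footprints of HTA2, a histone H2A gene, show this in single libraries. At 40 fl its level was 9.47 log2 CPM in the library labelled A, 5.17 in B and 5.51 in C. At 75 fl it was 5.31 in the library labelled A, 8.42 in B and 8.87 in C. Gene-centred profiles were correlated over 1135 well-counted genes outside the ribosome, across genes, which are not independent replicates. The 75 fl library labelled A had r = 0.91 with the 45 fl library of B, the strongest match of A to B. With the 75 fl library of B it had -0.42. The 70 fl library labelled A reached 0.32 at most, with the 45 fl library of B. Libraries of B and C at the same size did not always match, with r = 0.91 at 40 fl, -0.27 at 60 fl and 0.55 at 75 fl. Whether the size labels of the footprint libraries are in order was not tested. Footprint slopes are therefore given for all letters and for B and C alone, a choice made after seeing the data. Levels per coding length are given over all 24 libraries.

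**Figure D1:**
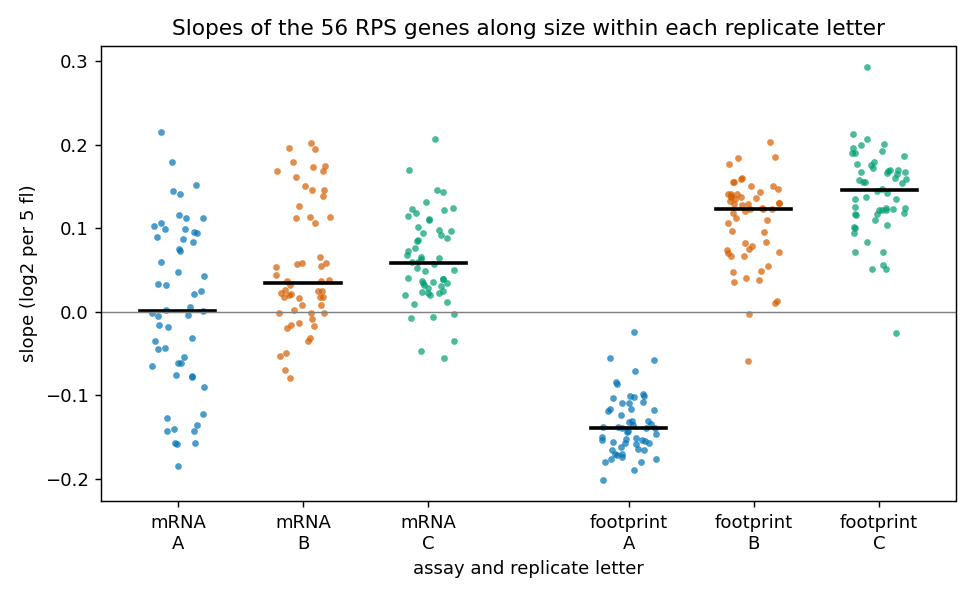
Slope along cell size (log2 per 5 fl) of each of the 56 RPS genes, fitted within each replicate letter, for mRNA and for ribosome footprints. Points are genes and black bars are medians: the footprint medians are -0.14 in A, 0.12 in B and 0.15 in C, while the mRNA medians lie between 0.0011 and 0.059.

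By counts, RPS mRNAs as a group were lowest in newborn cells and highest near 60 fl. Their share of counted mRNA reads was 10.1% ± 1.34 (SD, n = 3) at 40 fl, 15.2% ± 0.884 (n = 3) at 60 fl and 12.5% ± 0.808 (n = 3) at 75 fl. The 40 fl and 60 fl shares were farther apart than the spread of their replicates. At 40 fl the share was 11.2% in A, 10.4% in B and 8.60% in C. Those B and C libraries were the shallowest for mRNA, with 248840 and 515450 counted reads. Replicates at 40 fl split for some genes, such as RPS14B, at 10.3 log2 CPM in A, 8.32 in B and 8.06 in C. By the mean of each size, 38 of the 56 genes were lowest at 40 fl, against 24.1% of all genes. The highest size was 60 fl for 26 of them (46.4%), against 11.8% of all genes, and 55 fl for a further 13. The median RPS level, centred per gene, was -0.41 at 40 fl, 0.27 at 60 fl and -0.13 at 75 fl, where the median of all genes stayed between -0.019 and 0.018.

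All 3 replicates at 60 fl lay above all 3 at 40 fl for 32 of the 56 RPS genes (16.1% of all genes), and below for 0 (17.7% of all genes). At 65 fl this held for 22 genes (20.5% of all genes), with 0 below (22.8%). At 75 fl it held for 12 (15.1% of all genes), with 2 below (17.1%), so the upper end of the size range overlapped the lower end for most members. Sizes compared here were picked after their values were seen. The range over the 8 size means had a median of 0.84 log2 units in RPS genes and 0.86 in all genes, from 0.36 for RPS6A to 1.82 for RPS28B.

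For pooled mRNA, the authors' deposited table, which gives 1 log2 value per size relative to each gene's own level, lists all 56 genes. In the authors' deposited table the RPS median goes from -0.230 in the 40 fl pool to 0.154 in the 65 fl pool and back to -0.225 in the 75 fl pool. It moves up and then down, as the counts do, and that table comes from the same libraries. Its 40 fl and 75 fl medians are close to each other, where the centred counts gave -0.41 and -0.13. Members highest at 40 fl in that table include RPS2, RPS3, RPS6B, RPS13 and RPS25B. By the counts, 1 member was highest at 40 fl.

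**Figure D2:**
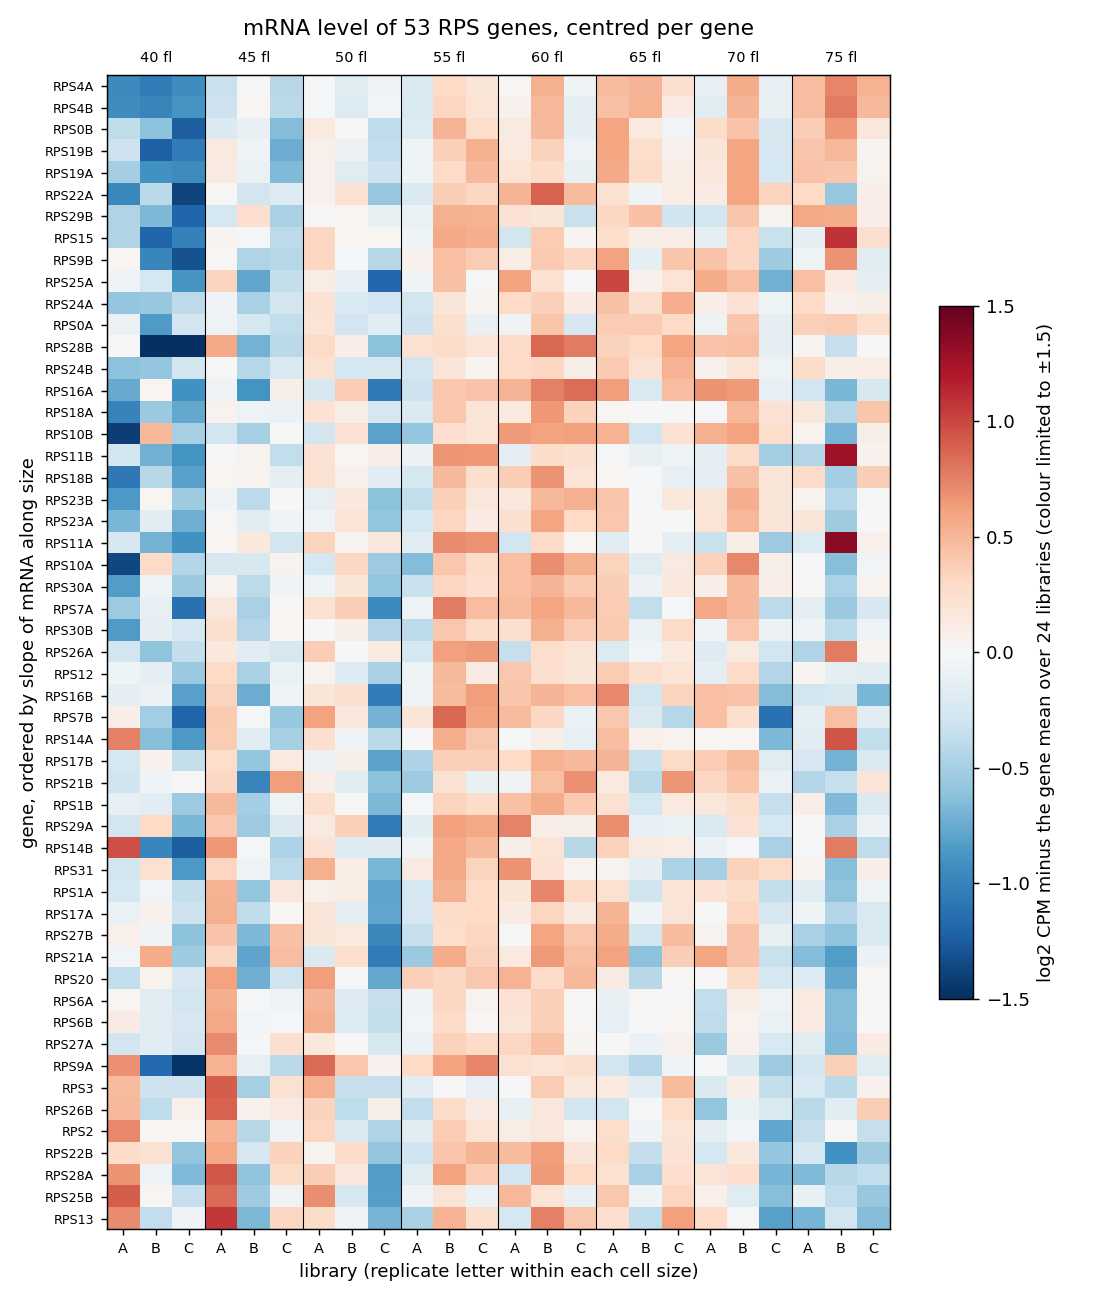
mRNA level of 53 of the 56 RPS genes (rows, ordered by slope along size) in each of the 24 mRNA libraries (columns, by size and replicate letter), as log2 CPM minus the gene's mean. Blue cells at 40 fl fill most rows, RPS4A and RPS4B stay highest at 75 fl, and 26 of the 56 genes have their highest mean at 60 fl.

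Along the whole size range 13 of the 56 RPS mRNAs rose (19.4% of all genes rose) and 0 fell (22.1% of all genes fell), by edgeR's slope test with Benjamini-Hochberg adjustment over all genes. In either direction this is 13 members, against 41.6% of all genes. The count of members that rose is near its background, and no member is among the genes that fell. At unadjusted p under 0.05 the counts were 17 and 0, where 1640 of the 3301 genes passed in either direction, and DESeq2 and limma-voom also called 0 that fell. The median slope was 0.032 in RPS genes and -0.0031 in all genes. Within the letters it was 0.0011 in A, where 27 of the 56 slopes were negative, 0.034 in B and 0.059 in C. A test over the 8 sizes as separate levels called 5 members, RPS4A, RPS4B, RPS19A, RPS22A and RPS24A, against 26.0% of all genes. Leaving out 1 library gave 2 to 11, and the adjusted p reached 0.12 for RPS19A, 0.069 for RPS22A and 0.10 for RPS24A, while those of RPS4A and RPS4B went no higher than 0.011 and 0.018. Without the 40 fl libraries 4 members rose, RPS0A, RPS0B, RPS4A and RPS4B, and the test over sizes called 0. Without the 3 mRNA libraries under 1000000 reads, 2 of them at 40 fl, 8 rose.

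RPS4A and RPS4B, 2 copies of a protein of the subunit body, rose most. RPS4A (YJR145C, chromosome X, 702027 to 703068, build R64) had 9.87, 9.78 and 9.90 log2 CPM at 40 fl in A, B and C, and 10.9, 11.4 and 10.8 at 60 fl. At 75 fl the values were 11.3, 11.6 and 11.4. All libraries at 60 and 75 fl lay above all those at 40 fl, and the sizes in between held intermediate means of 10.6 ± 0.21 (SD, n = 3) at 45 fl and 10.7 ± 0.09 (n = 3) at 50 fl. Per 5 fl the mRNA gained 0.17 log2 units (SE 0.03, edgeR adjusted p = 9.6e-05). For RPS4B (YHR203C, chromosome VIII, 504476 to 505530) the gain was 0.16 (SE 0.03, edgeR adjusted p = 0.00019). The RPS4A to RPS4B count ratio varied with an SD of 0.046 log2 units against 0.045 from counting alone, so the copies cannot be counted as 2 independent cases.

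RPS19A and RPS19B encode a head protein needed for maturation of the pre-40S particle. Their slopes were 0.12 (SE 0.03, edgeR adjusted p = 0.0025) and 0.13 (SE 0.03, adjusted p = 0.0048). RPS19A (YOL121C, chromosome XV, 92026 to 92850) averaged 8.38 ± 0.24 (log2 CPM, SD, n = 3) at 40 fl and 9.49 ± 0.23 (n = 3) at 65 fl. Its lowest library at 65 fl, 9.29, was above its highest at 40 fl, 8.67. RPS0A and RPS0B, which encode a protein between head and body that late rRNA processing needs, had slopes of 0.095 (SE 0.027, edgeR adjusted p = 0.0058) and 0.13 (SE 0.03, adjusted p = 0.0020). RPS24A and RPS24B, copies of another body protein, had slopes of 0.098 (SE 0.026, edgeR adjusted p = 0.0043) and 0.090 (SE 0.026, adjusted p = 0.0071). RPS24A (YER074W, chromosome V, 306323 to 307196) was at 9.67, 9.68 and 9.86 (log2 CPM) in the 40 fl libraries and at 10.7, 10.5 and 10.8 in those of 65 fl. Both groups of 3 were tight, and they did not overlap.

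RPS22A (YJL190C, chromosome X, 74910 to 75302), a copy of a body protein bound to the central domain of 18S rRNA, had its highest level at 60 fl. On the log2 CPM scale its 40 fl libraries gave 11.1, 11.6 and 10.7, its 60 fl libraries 12.6, 12.9 and 12.5, and its 75 fl libraries 12.3, 11.5 and 12.2. The 60 fl values lay above all those at 40 fl and above all those at 75 fl. Its slope was 0.11 (SE 0.04, edgeR adjusted p = 0.035), and without the 40 fl libraries it no longer passed (slope 0.050, edgeR adjusted p = 0.37). RPS29B, RPS9B and RPS18A also rose, with slopes between 0.085 and 0.11, and of these none passed without 40 fl. RPS14B (chromosome X, 73787 to 74611) is the neighbour of RPS22A at a gap of 298 bases on the opposite strand, and its slope was 0.0073 (SE 0.044, edgeR adjusted p = 0.92).

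Of the 8 single-copy genes, RPS15 alone rose. RPS15 (YOL040C, chromosome XV, 253149 to 253577), a head protein needed for export of pre-40S particles from the nucleus, was at 8.91, 8.18 and 8.36 (log2 CPM) in the 40 fl libraries and at 9.30, 9.93 and 9.91 in those of 55 fl. Its slope was 0.11 (SE 0.04, edgeR adjusted p = 0.028), but not past the threshold without 40 fl (adjusted p = 0.31) or without 75 fl (adjusted p = 0.073), where the replicate B library stood at 10.4. The other 7 did not pass, and 6 of them are given here. RPS2, which lines the mRNA entry site, had a slope of -0.056 (SE 0.031). RPS3, also at the entry site, had -0.034 (SE 0.035). RPS12, in the beak of the head, had 0.032 (SE 0.031), and RPS20, another head protein, -0.0087 (SE 0.040). RPS31, whose product is made as a fusion with ubiquitin, had 0.0062 (SE 0.040).

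RPS13, a body protein that contacts the large subunit, had the lowest slope of all members, -0.073 (SE 0.046, edgeR adjusted p = 0.21). Its 40 fl libraries had 10.9, 9.77 and 10.1 (log2 CPM) and its 75 fl libraries 9.45, 9.87 and 9.50, so the groups overlapped. By position in the subunit, 5 of 22 head genes and 8 of 34 body and platform genes rose. Their median slopes were 0.049 and 0.026 (log2 per 5 fl). Paired genes had a median slope of 0.044 and single-copy genes -0.014. None of these differences between groups of members was tested. Of 81 counted genes for proteins of the large subunit, 11 rose (19.4% of all genes) and 0 fell (22.1%), with a median slope of 0.027.

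Genes that act on these proteins did not all follow them. In a list of 17 counted genes, 12 fell (22.1% of all genes) and 0 rose (19.4% of all genes), with a median slope of -0.12. The list holds late assembly factors and chaperones of the 40S subunit and also ASC1, a protein of the mature 40S subunit, and STM1, which binds idle ribosomes. ASC1 and STM1 did not pass, with slopes of -0.092 (SE 0.044, edgeR adjusted p = 0.093) and 0.096 (SE 0.040, adjusted p = 0.054). DIM1, which methylates 18S rRNA, fell by 0.41 log2 per 5 fl (SE 0.04, edgeR adjusted p = 6.0e-08). TSR4, a chaperone of newly made Rps2, fell by 0.23 (SE 0.04, edgeR adjusted p = 1.6e-05), and PNO1, a pre-40S factor, fell by 0.22 (SE 0.04, adjusted p = 5.7e-05). Of 10 counted regulators of ribosomal protein transcription, 4 rose and 1 fell, against the same 19.4% and 22.1% of all genes. They include ABF1, a general DNA-binding factor, which gained 0.29 log2 per 5 fl (SE 0.04, edgeR adjusted p = 1.5e-05), and the kinase genes TOR2 and TOR1, at 0.087 and 0.083 (adjusted p = 0.0045 and 0.0087).

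RPS footprints over all 24 libraries showed no call along size. The slope test gave 0 members that rose (0.00% of all genes) and 0 that fell (0.00%), and the test over sizes 0 (0.515% of all genes). At unadjusted p under 0.05 edgeR also gave 0, and DESeq2 and limma-voom called 0. Slopes ran from -0.038 to 0.066 with a median of 0.035 (log2 per 5 fl). RPS2 had the highest, 0.066 (SE 0.048, edgeR adjusted p = 0.73). These slopes average the opposite directions of replicate A and of B and C described above.

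With replicates B and C alone, 26 of the 56 RPS genes rose in footprints (8.82% of all genes) and 0 fell (14.9% of all genes), by the same edgeR test. Their median slope was 0.11 log2 per 5 fl, against -0.028 for all genes, and 54 of 56 slopes were positive. The test over sizes called 4 members, RPS2, RPS4A, RPS7A and RPS9B (15.6% of all genes). Leaving out single libraries gave 18 to 33 members that rose, and leaving out the 6 libraries under 150000 reads gave 44, while the share of all genes that rose went to 20.1%. Replicate B alone called 15 and replicate C alone 0 (25 at unadjusted p under 0.05). Replicate A alone also called 0, with a median slope of -0.13. The size means of B and C were highest at 75 fl for 37 members, against 17.2% of all genes, and at 60 fl for 2. The 60 fl mean rests on 2 libraries, and that of C held 116437 reads, 25.1% of them from the gene FAR11, and the lowest RPS share. Over all letters 31 members were highest at 55 fl, against 12.9% of all genes.

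RPS2 footprints show the 2 directions. On the log2 CPM scale its levels in B and C were 10.6 and 10.3 in the 40 fl libraries, 11.6 and 11.1 in the 60 fl libraries, and 11.7 and 11.7 in the 75 fl libraries. In the libraries labelled A they were 11.7 at 40 fl, 11.5 at 60 fl and 10.5 at 75 fl. B and C thus went up by about as much as A went down. The slope in B and C was 0.17 (SE 0.04, edgeR adjusted p = 0.00081), and the difference of A from B and C was -0.35 (edgeR adjusted p = 0.00054).

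RPS7A, a body protein, had the steepest footprint slope among members called in B and C, 0.18 (SE 0.04, edgeR adjusted p = 0.0041). Its levels there were 10.1 and 10.0 at 40 fl and 11.2 and 11.2 at 75 fl. RPS22A had 0.17 (SE 0.04, edgeR adjusted p = 0.0017) and RPS4A 0.13 (SE 0.04, adjusted p = 0.013). Single-copy genes were called in 6 of 8 cases in B and C, against 26 of all 56 members. RPS15 and RPS3 were the exceptions (both chosen for mention after their values were seen). RPS3 had 0.10 (SE 0.04, edgeR adjusted p = 0.054). Of the 13 genes that rose in mRNA, 9 (69.2%) were among the 26 that rose in footprints of B and C, which is 34.6% of the 26. As 26 of all 56 members rose in these footprints, much overlap needs no link, and a link was not tested. In the same libraries 34 of 81 large-subunit genes rose and 0 fell, against 8.82% and 14.9% of all genes. Of the 17 genes of the assembly factor list, 13 fell and 2 rose. The 2 were STM1, at 0.17 (SE 0.04, edgeR adjusted p = 0.0013), and ASC1, at 0.17 (SE 0.04, adjusted p = 0.0052).

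Translational efficiency was tested as the difference between the footprint and the mRNA response to size in 1 model of all 48 libraries. It was called for 0 members along size (0.00% of all genes rose and 0.00% fell) and for 0 over sizes (0.333% of all genes). At unadjusted p under 0.05 edgeR gave 2 members with positive and 3 with negative slopes, and DESeq2 and limma-voom called 0. The smallest p were those of RPS19A, at -0.13 (SE 0.05, edgeR adjusted p = 0.24), and RPS29B, at -0.15 (SE 0.06, adjusted p = 0.25). RPS2 had 0.12 (SE 0.06, adjusted p = 0.36). The footprint part of these slopes averages the opposite directions of replicate A and of B and C. The slopes and the lack of calls over all 48 libraries carry this mixing. Without replicate A the count was again 0.

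Levels of footprints relative to mRNA differed widely between RPS genes. Over the 16 pools of B and C the log2 ratio of footprint CPM to mRNA CPM had a median of -0.064 in RPS genes and -1.76 in all genes, and 27 of 56 members were above 0. The 81 large-subunit genes had a median of 0.41, with 47 above 0. It was highest for RPS11A, at 1.81 ± 0.66 (SD, n = 16), and lowest for RPS30A, at -2.82 ± 0.43 (n = 16). The lowest pool of RPS11A, 0.57, was above the highest pool of RPS30A, -1.91. Copies of one protein could differ as well: RPS16B was at 1.74 ± 0.52 and RPS16A at -0.70 ± 0.76 (SD, n = 16 each). Footprint and mRNA libraries were made by different protocols, and capture that differs by gene was not tested. Sharing of reads between copies was not tested either.

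Per coding length, footprints were much more even between families than mRNAs. The comparison used the 13 families in which no copy has an intron in its coding sequence, with copies summed, so reads shared within a pair stay in the sum. Median mRNA levels over 24 libraries ranged 31.2-fold, from 1139 CPM per kb of coding sequence for RPS2 to 35477 for RPS31. Median footprint levels ranged 3.10-fold. In the 11 of these families described singly, footprint levels ranged 1.97-fold, from 3315 for RPS20 to 6535 for RPS31. Over the 13 the upper quartile of families was 2.58 times the lower in mRNA and 1.45 times in footprints.

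RPS2 mRNA ran from 653 to 1854 CPM per kb of coding sequence over the 24 libraries, and its footprints from 1533 to 4905 around a median of 3577. RPS31 mRNA ran from 18566 to 53808, and its footprints from 3043 to 10347 around a median of 6535. The 2 families did not overlap in mRNA and overlapped in footprints. The ubiquitin-coding stretch of RPS31 resembles other ubiquitin genes, so its reads may be shared with them. After RPS31, mRNA was highest for RPS29, at a median of 12341, and RPS1, at 10315, both summed over copies. RPS15 was next to RPS2 at the low end, with 1572 in mRNA and 3615 in footprints. By footprints the neighbours in the order of the 11 families overlapped across libraries.

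**Figure D3:**
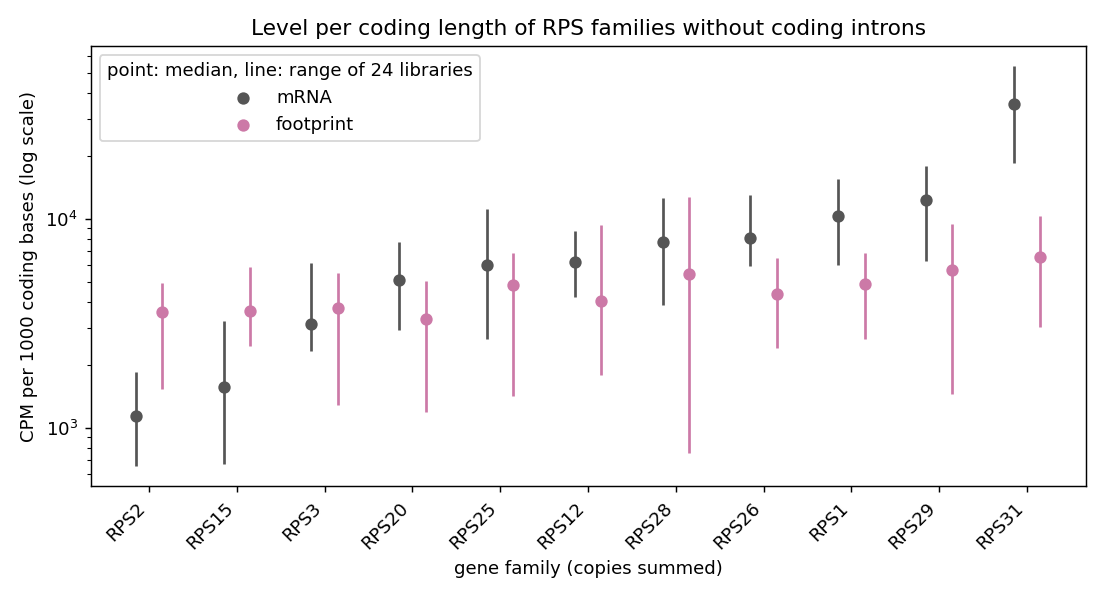
Level per kb of coding sequence (CPM, log scale) of 11 of the 13 RPS families without coding introns, copies summed, in mRNA and in footprints. Points are medians and lines the range of 24 libraries per assay: mRNA medians span 31.2-fold from RPS2 to RPS31, footprint medians 1.97-fold from RPS20 to RPS31.

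A copy that dominated by over 1 log2 unit in the median was seen in 7 of 24 pairs in mRNA. The log2 ratio of A to B counts within a library needs no scaling between libraries. In 15 pairs the same copy had more mRNA in all 24 libraries, which includes pairs with a small ratio such as RPS6, at 0.16, and RPS4. RPS28, at the mRNA exit, had the largest, 3.17 in favour of RPS28A (2.53 to 4.72 over 24 libraries). RPS25, a head protein, had 2.81 (1.78 to 3.39) and RPS16, whose tail reaches the peptidyl tRNA, 2.05 (1.41 to 2.54). RPS22 had 1.95, RPS7 1.64 and RPS10 1.40, all in favour of the A copy. RPS9, at the mRNA entry, was the other way, with -1.64 (-2.52 to -0.96). At the other end were RPS19, at 0.042, RPS4, at 0.12, and RPS29, at -0.13.

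In 6 pairs the mRNA ratio varied by an SD under 0.1 log2 units over the 24 libraries. They include RPS6 (0.032, with 0.021 from counting alone), RPS24 (0.040, 0.050), RPS4 (0.046, 0.045), RPS18 (0.091, 0.021) and RPS19 (0.093, 0.080). For these pairs the 2 copies moved together across all sizes, and a read shared between copies would give the same picture. In the counts, RPS28 and RPS29 had larger SDs of the mRNA ratio, 0.57 and 0.51, with 0.14 and 0.053 from counting.

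The balance of copies changed along size in 4 RPS pairs in mRNA, RPS22, RPS25, RPS28 and RPS9, or 16.7% of the 24. This is near the 18.3% of all 60 counted pairs of genes named A and B (permutation test of the slope with 100000 resamples, two-sided, Benjamini-Hochberg adjusted over the 60). At unadjusted p under 0.05 there were 11 RPS pairs, and 22 of all 60. RPS22A gained on RPS22B: the log2 ratio was 0.70, 1.29 and 1.13 at 40 fl, 1.97, 2.19 and 2.22 at 60 fl and 2.49, 2.27 and 2.57 at 75 fl. No library at 60 or 75 fl overlapped those at 40 fl. The slope was 0.18 per 5 fl (SE 0.02, permutation adjusted p = 0.00020). RPS22B, whose intron is cut by the RNase III enzyme Rnt1, had a slope of its own of -0.065 (SE 0.039, edgeR adjusted p = 0.19).

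RPS25A gained on RPS25B, with log2 ratios of 1.78, 2.45 and 2.22 at 40 fl and 3.32, 3.26 and 3.19 at 75 fl. The slope was 0.15 (SE 0.02, permutation adjusted p = 0.00020), made of 0.10 (SE 0.04) in RPS25A and -0.068 (SE 0.039) in RPS25B, neither of which passed alone. RPS28A lost to RPS28B, a gene whose product is known to lower its own mRNA through Edc3 and decapping. The ratio was 4.00, 4.72 and 4.68 at 40 fl, 3.41, 3.39 and 3.11 at 50 fl and 2.62, 3.26 and 2.96 at 75 fl. The 40 fl libraries stood above all others but 1, a 45 fl library of replicate C at 4.00, with a slope of -0.19 (SE 0.03, permutation adjusted p = 0.00030). RPS28B was the least abundant member in mRNA, at 5.79 ± 1.06 log2 CPM (SD, n = 3) at 40 fl and 7.62 ± 0.31 (n = 3) at 60 fl.

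RPS9A lost to RPS9B by -0.10 per 5 fl (SE 0.03, permutation adjusted p = 0.012). Splicing of RPS9A is known to be lowered by the Rps9 protein. The mean ratio was highest at 50 fl, -1.14 ± 0.046 (SD, n = 3), and lowest at 65 fl, -2.18 ± 0.31 (n = 3). These libraries did not overlap, but the 2 sizes were picked as the extremes after seeing the values. The libraries gave -0.96, -1.79 and -1.79 at 40 fl and -1.84, -1.95 and -1.64 at 75 fl, which overlap. The fall was thus not steady along size. The call was lost without replicate A (slope -0.062, adjusted p = 0.23) and without replicate B (adjusted p = 0.057). The next smallest p were those of RPS6, with a slope of 0.0067 (SE 0.0025, permutation adjusted p = 0.059), RPS26, at 0.084 (SE 0.031, adjusted p = 0.059), and RPS4, at 0.0093 (SE 0.0037, adjusted p = 0.073). In footprints the ratio slope was called in 0 RPS pairs (0.00% of the 60 pairs), with 2 at unadjusted p under 0.05, and without replicate A the count was again 0.

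**Figure D4:**
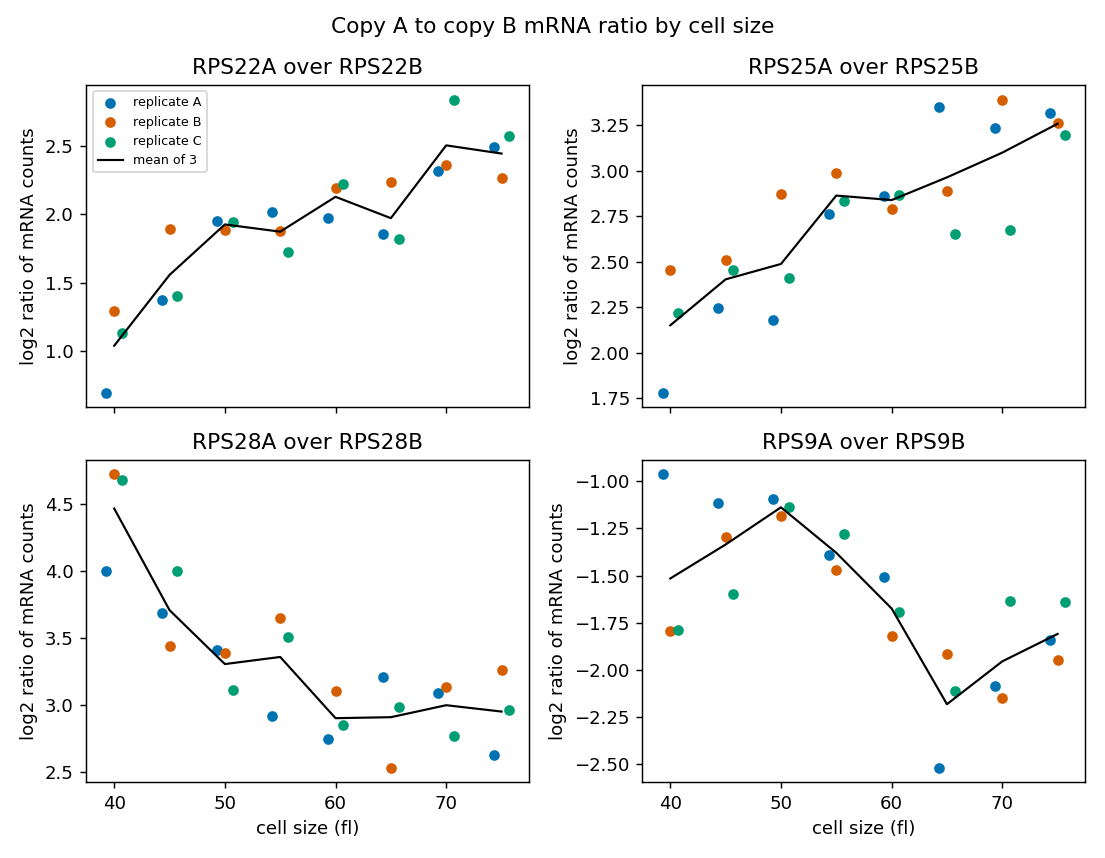
Log2 ratio of A to B mRNA counts by cell size (fl) in RPS22, RPS25, RPS28 and RPS9, with 1 point per library coloured by replicate letter and a line through the mean of 3. The RPS22 mean goes from 1.04 at 40 fl to 2.44 at 75 fl, RPS25 from 2.15 to 3.26, RPS28 from 4.46 to 2.95 and RPS9 from -1.51 to -1.81.

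Copy ratios in footprints differed from those in mRNA of the same pool in 21 of 24 RPS pairs (87.5%), near the 91.7% of all 60 pairs (sign-flip permutation test over 24 pools, adjusted over the 60). The exceptions were RPS1, RPS21 and RPS24. Without the pools labelled A the count was 22. In 8 pairs the order of the copies by median was opposite in footprints. In RPS28 the median ratio was 3.17 in mRNA and 0.64 in footprints, and the paired difference was -2.57 ± 0.79 (SD, n = 24 pools, permutation p = 1e-05, the smallest the resamples can give, adjusted p = 1.6e-05). The footprint ratio was lower in all 24 pools.

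In RPS16 the ratio was 2.05 in mRNA and -0.34 in footprints, a difference of -2.34 ± 0.37 (SD, n = 24). By these counts the copy with less mRNA had more footprints. How reads that match both copies were assigned is not stated, and their effect on the ratios was not tested. In RPS27, a zinc-binding protein of the platform, the values were 0.53 and -1.52, with a difference of -2.17 ± 1.11 (n = 24). RPS27A had no footprint in 1 library, that of 50 fl labelled C, which held 54111 counted reads. RPS26, which lines the mRNA exit channel, went the other way, with -0.90 in mRNA and 0.89 in footprints. Its difference, 1.84 ± 0.60 (SD, n = 24), was positive in all 24 pools. In RPS14, a platform protein whose B copy is known to be spliced less when the protein is in excess, the ratio was 0.27 in mRNA and 1.54 in footprints. RPS25 moved from 2.81 in mRNA to 1.18 in footprints.

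Pairs with almost equal copies in mRNA were close to equal in footprints as well. RPS6, which TOR signalling leads to phosphorylate, had 0.16 in mRNA and 0.0014 in footprints. RPS4 had 0.12 and 0.035. Their differences passed the test but were small, at -0.16 ± 0.065 and -0.099 ± 0.087 (SD, n = 24 pools each). Reads that match both copies were not tested for here.

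**Figure D5:**
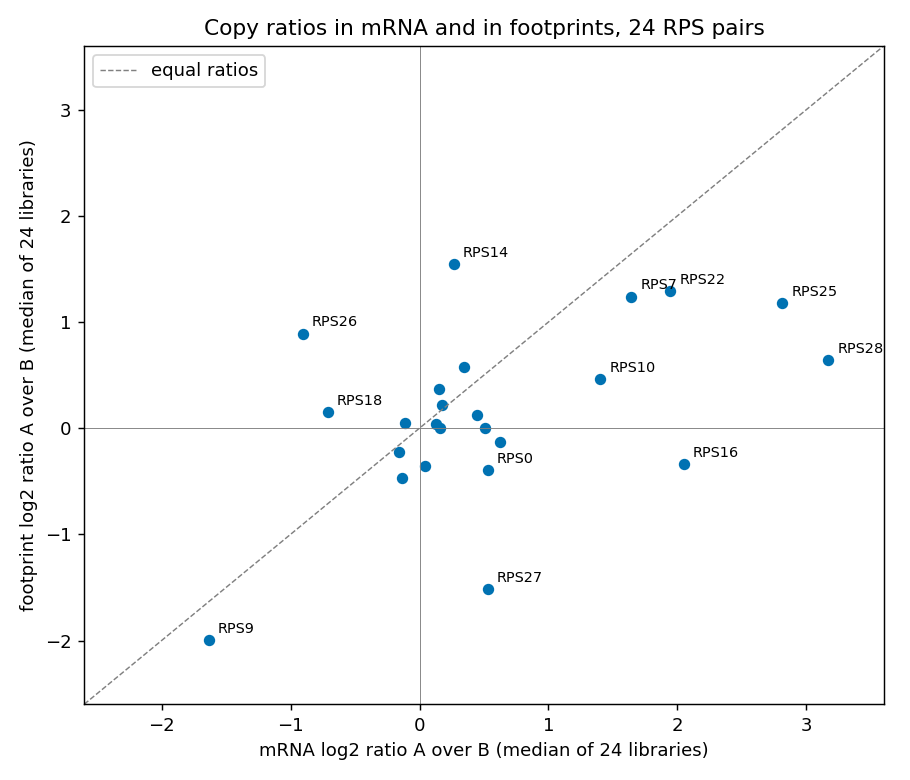
Median log2 ratio of A to B counts in footprints (vertical axis) against mRNA (horizontal axis) for the 24 RPS pairs, medians of 24 libraries each, with a dashed line where both are equal. RPS28, RPS25 and RPS16 lie far below the line at mRNA ratios of 3.17, 2.81 and 2.05, and RPS26 and RPS14 lie above it.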

How the data were processed

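Counts per gene were used as the authors deposited them, 1 whole-number count table for mRNA and 1 for footprints. The authors' deposited log2 tables served to check which count table holds which assay and to give the pooled mRNA values. Per the submitters' processing notes, build R64 was used with TopHat2 2.1.0 and RSEM 1.2.20 among the tools, but the step that made each table is not stated. Symbols and spans came from a RefSeq table of R64, with 3260 ORF names matched and 41 not. edgeR 4.0.16 (R 4.3.3, quasi-likelihood, TMM, filterByExpr) was fitted to all 3301 genes, on simulated data first. DESeq2 1.42.0 and limma 3.58.1 were alternatives. Pair ratios used a pseudocount of 0.5. The count tables hold genes with at least 10 mRNA reads in every library. No replicates agreed within counting noise. The members, gene lists and tests were chosen with earlier results of these data known. Named genes follow a rule of smallest p, largest and smallest slopes and ratios, plus the single-copy genes; others are said to be chosen later. 3 members in 2 families are counted in all totals but not reported here singly. Replicates are separate cell pools. Footprint and mRNA values of 1 pool were paired in the pair ratios and in the footprint to mRNA levels, by their labels. After removal of size means, the footprint and mRNA libraries of 1 pool correlated across genes at a mean r of 0.11. The correlation was over 0.1 in 13 of 24 pools. For pools labelled A, whose footprints ran the opposite way along size, the match was not tested separately.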

Additional observations from a re-analysis of the deposited data

How the results depend on the processing

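No alternative reversed the direction of a named RPS mRNA slope, though within replicate A alone the median RPS slope was 0.0011. The number of members that rose was 9 to 19 when leaving out a replicate letter or a single library. It was 4 without 40 fl, 22 without 75 fl and 8 without the mRNA libraries under 1000000 reads (chosen after seeing the data). The count over sizes, 5, moved more: 20 with DESeq2, 10 with limma-voom, 0 without 40 fl, 8 without 75 fl, 2 without the mRNA libraries under 1000000 reads, and 0 to 11 when leaving out letters or libraries. With the replicate block by letter it was 8, and 14 members rose. Same-letter libraries correlated over 0.1 in 39 of 84 pairs in mRNA and 34 of 84 in footprints, so the letters were not taken as pairing, although footprints labelled A stood apart in slope. Footprints gave 0 calls except without replicate A (4 over sizes and 26 that rose, so 0 to 4 and 0 to 26 over the libraries and letters left out). In B and C alone 18 to 33 rose when single libraries were left out, 44 without libraries under 150000 reads (20.1% of all genes), 43 with limma-voom, 39 with DESeq2 and 28 with the replicate block. Pairs with a changing mRNA ratio numbered 3 to 7 when leaving out a letter, 5 with the replicate block and 10 without 75 fl. The causes were not tested. For single genes and pairs, 672 alternative values kept their call and 112 lost it with the same direction. Intervals cover spread between pools, and depth limits the 6 shallow footprint libraries.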
